A study of Mus musculus with 3 samples.

Results

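Natural killer (NK) cells kill by releasing preformed granules, and 10 genes linked to these granules or their release were examined: Rab27a, Rab27b, Unc13d, Stx11, Stxbp2, Lyst, Lamp1, Srgn, Ctsc and Ctsw. They were chosen by symbol from the 25906 genes in the files, and all 10 were found and passed the minimum mean of 10 CPM (counts scaled to a total of 1000000 per group) that 7957 genes reached. NK cells, sorted as live NK1.1+NKp46+ cells, came from lung and blood of female wild-type mice, 9 weeks old. Mice were either naive or had received PyMT cells i.v., a line from a mammary tumor of the MMTV-PyMT model, 6 h or 14 days before sacrifice, and the whole lung was digested, so that cells of tumor nodules and of vessels were not separated. Each of the 3 conditions was 1 single-cell library with lung and blood cells mixed and told apart by hashtag antibodies, which gave 6 groups. The animals within a library cannot be separated.

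A cytotoxic granule is a secretory lysosome. It is loaded with perforin and with granzymes packed on the proteoglycan serglycin, is moved to the contact with a target cell, is docked at the plasma membrane by Rab27a, is primed by the product of Unc13d, and fuses through a SNARE complex that holds syntaxin 11 (Stx11) and its binding partner Stxbp2. Inherited loss of RAB27A, UNC13D, STX11, STXBP2 or LYST in humans impairs this release and is a cause of hemophagocytic disease.

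After the filter on cells, 21113 cells with a tissue were kept, 2069 to 4680 per group. The summed counts of unique molecular identifiers (UMIs) were 16936897 to 35922737 per group, and the median was 5910 to 7524 UMIs per cell. All 5 NK markers were detected in every group, at a summed level of 3193 to 5112 CPM, and the sum was lower in lung than in blood at every time. Ncr1, which encodes the NKp46 of the sort, was at 896 CPM in naive lung and 1533 CPM in naive blood. Eomes alone of the 5 was higher in lung at every time. It had 291 against 272 CPM in naive mice, 249 against 242 CPM at 6 h and 223 against 191 CPM at 14 days. Markers of other cells differed between groups, among them the erythroid list (90.002 CPM in 14-day lung and at most 2.57 CPM elsewhere), the monocyte or macrophage list (1.40 CPM in naive blood to 91.1 CPM in 14-day blood) and the neutrophil list (11.3 CPM in naive lung, 25.4 CPM in naive blood and at most 2.08 CPM later). The T cell list ranged from 18.2 CPM in naive lung to 44.1 CPM in 14-day blood, and the ILC1 list was at 35.7 CPM in naive lung, 25.9 CPM in naive blood, 70.3 CPM in 14-day lung and 70.2 CPM in 14-day blood. Without cells with a UMI of a marker of another cell type the log2 ratio of Rab27b in 14-day over naive lung was -1.83, and without cells with 2 or more ILC1 markers it was -1.95. Stress genes of tissue digestion, to which blood was not subjected, summed to 297 CPM in naive lung against 154 CPM in naive blood, and to 508 CPM in 14-day lung against 112 CPM in 14-day blood. Of this list only Egr1 was lower in lung, in naive mice (23.8 against 48.1 CPM) and at 6 h (20.7 against 33.2 CPM). Dnajb1 differed little in naive mice (57.1 against 48.3 CPM). The part of digestion in the differences between lung and blood was not tested and cannot be told apart from tissue. The sum also differed between naive and 14-day lung, and its part in that comparison was not tested either. In cells with no UMI of 6 stress genes, the log2 ratios of 14-day over naive lung were -1.79 for Rab27b and -0.85 for Stx11. They were 0.62 for Rab27a and 0.52 for Srgn. Of the kept cells, 33 barcodes occurred in more than 1 library. With 1 library per condition there is no test between conditions, and all intervals given are 95% intervals for counting error only. They are exact, except that intervals of a difference of log2 ratios use a normal approximation on the log scale.

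The 10 genes spanned a wide range of UMI levels, which are counted per molecule at the 3′ end and do not scale with transcript length. Srgn, the core protein of serglycin, was the most abundant with a mean of 789 CPM over the 6 groups, followed by Ctsw, which encodes the cysteine protease cathepsin W, with 506 CPM. Stxbp2 had the lowest mean, 31.7 CPM. Across the 6 groups Rab27b varied most, with a highest level 6.10 times the lowest, while Srgn varied 2.08-fold, Lyst 1.964-fold and Unc13d 1.72-fold. Lamp1, whose product is the granule membrane protein that appears on the surface during degranulation, varied least, 1.13-fold, and lay between 72.4 and 82.0 CPM.

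**Figure D1:**
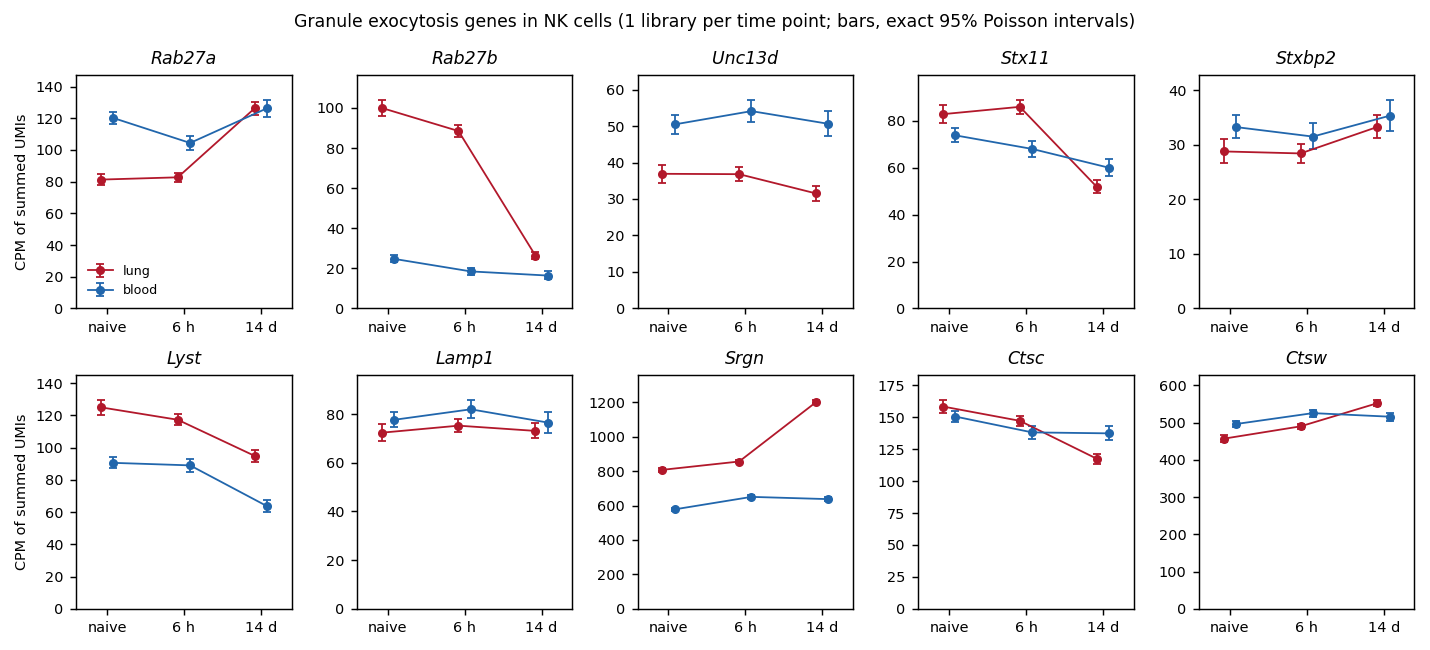
Level of each of the 10 genes in lung (red) and blood (blue) NK cells of naive mice and of mice 6 h and 14 days after PyMT injection, as CPM of summed UMIs on axes that start at 0, with exact 95% Poisson intervals. Rab27b stood at 100.0 and 88.5 CPM in naive and 6 h lung and at 26.4 CPM or less in the other 4 groups, and Srgn was highest in 14-day lung at 1202 CPM.

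Rab27b and Rab27a encode paralogous small GTPases that tether secretory granules. Rab27a is the form known from cytotoxic lymphocytes, and Rab27b is known from platelets and mast cells. Rab27b lies at chr18:69979131-70141605 on the minus strand and Rab27a at chr9:73044854-73097629 on the plus strand (GRCm38).

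Rab27b was measured at 100.0 CPM (96.0 to 104) in naive lung, 24.8 CPM (23.002 to 26.6) in naive blood, 88.5 CPM (85.4 to 91.6) in 6 h lung, 18.5 CPM (16.7 to 20.4) in 6 h blood, 26.4 CPM (24.5 to 28.4) in 14-day lung and 16.4 CPM (14.5 to 18.5) in 14-day blood. Naive and 6 h lung were high and the other groups low, and the intervals of 14-day lung and naive blood overlapped. Naive lung was 4.04-fold above naive blood, a log2 ratio of 2.02 (1.90 to 2.14), and only 69 of the 7957 genes tested had a higher one. At 6 h the lung level was 4.79-fold above blood, and at 14 days 1.61-fold. Between naive and 14-day lung Rab27b was 3.79-fold lower, a log2 ratio of -1.92 (-2.04 to -1.80), and 3 of the 7957 genes had a lower ratio. In blood the log2 ratio of 14 days over naive was -0.59 (-0.80 to -0.39). The change over 14 days in lung minus that in blood was -1.33 (-1.56 to -1.10) on the log2 scale.

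Rab27a followed another order. Its levels were 81.3 CPM (77.7 to 85.0) in naive lung, 120.2 CPM (116 to 124) in naive blood, 82.7 CPM (79.8 to 85.8) in 6 h lung, 104 CPM (100.2 to 109) in 6 h blood, 126 CPM (122 to 130.5) in 14-day lung and 126 CPM (121 to 132) in 14-day blood. Naive and 6 h lung were the low groups, and at 14 days lung and blood had overlapping intervals, with a log2 ratio of 0.00 (-0.08 to 0.08). The ratio of 14-day over naive lung was 0.64 (0.55 to 0.72), and that of 14-day over naive blood 0.07 (-0.01 to 0.15). The difference of these ratios was 0.56 (0.45 to 0.68).

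Of the UMIs of both paralogs together, Rab27b made up 55.2% (53.7 to 56.7%) in naive lung and 51.7% (50.4 to 52.9%) in 6 h lung. It made up 17.1% in naive blood, 15.0% in 6 h blood, 17.3% in 14-day lung and 11.5% in 14-day blood. The share in 14-day lung was thus inside the interval of naive blood (16.0 to 18.2%). The sum of both paralogs varied less than Rab27b, from 123 CPM in 6 h blood to 181 CPM in naive lung.

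The difference lay both in the share of cells with Rab27b and in the UMIs per such cell. With each cell thinned to 3000 UMIs, which left out 6 to 86 shallower cells per group, 14.9% (13.8 to 16.1%) of naive lung cells and 12.7% of 6 h lung cells had a Rab27b UMI, with 1.99 and 1.91 UMIs per such cell. The other 4 groups had 4.44 to 5.97% of cells with 1.23 to 1.37 UMIs. Without thinning the shares were 20.8% in naive lung, 10.1% in naive blood, 19.8% in 6 h lung, 9.10% in 6 h blood, 10.7% in 14-day lung and 8.07% in 14-day blood. Only NK cells were sorted, so the background of Rab27b was not measured in another cell type. If 5% of the UMIs of a cell were free RNA, the profile of barcodes with at most 100 counts would give at most 0.501% of cells with a Rab27b UMI. Thinned shares for Rab27a were 19.1% in naive lung, 27.9% in naive blood, 26.9% in 14-day lung and 30.2% in 14-day blood (32.5, 46.6, 49.0 and 53.7% without thinning). In naive lung a Rab27b UMI was found in 16.4% of cells with Rab27a and in 14.6% of the others, and in 14-day lung in 4.93 and 6.35%, and 30 to 112 cells per group held UMIs of both.

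**Figure D2:**
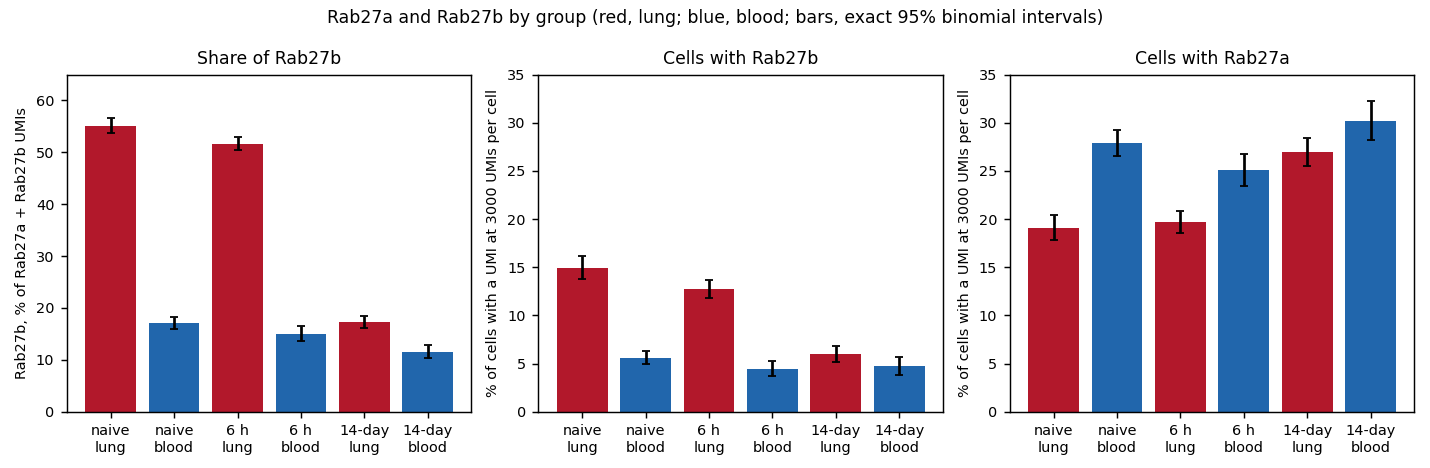
Rab27b as a share of Rab27a and Rab27b UMIs (left), and share of cells with a UMI of Rab27b (middle) or Rab27a (right) after thinning to 3000 UMIs per cell, in the 6 groups, with exact 95% binomial intervals. The Rab27b share was above 50% only in naive and 6 h lung (55.2 and 51.7%) and at most 17.3% in the other 4 groups.

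The platelet list is of one cell type known for Rab27b. It summed to 6.95 CPM in naive lung, 6.90 CPM in naive blood, 7.35 CPM in 6 h lung, 7.07 CPM in 6 h blood, 5.08 CPM in 14-day lung and 8.44 CPM in 14-day blood. Nearly all of it was Gp1bb and Itga2b. Pf4 and Ppbp had 0 UMIs in both naive groups, and 1 and 7 UMIs in 6 h lung. The mast cell or basophil list was at most 2.303 CPM, most of it Cpa3 (17 to 46 UMIs per group), with Fcer1a and Ms4a2 at 0 UMIs in all 6 groups. Over all alternatives of filtering and scaling the log2 ratio of Rab27b stayed between 1.92 and 2.11 for naive lung over blood and between -2.00 and -1.75 for 14-day over naive lung.

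The priming and fusion genes differed less. Unc13d, the priming factor (chr11:116062095-116077961, minus strand), was lower in lung at every time, at 36.9 CPM (34.5 to 39.4) in naive, 36.8 CPM (34.8 to 38.8) in 6 h and 31.5 CPM (29.5 to 33.7) in 14-day lung. Blood had 50.4 CPM (47.9 to 53.0), 54.1 CPM (51.1 to 57.2) and 50.6 CPM (47.3 to 54.1) in the same order. No lung interval overlapped a blood interval. The log2 ratio of lung over blood was -0.45, -0.56 and -0.68 (-0.82 to -0.55), and the last was 1.61-fold lower.

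Stx11, the syntaxin of the fusion complex (chr10:12938209-12964298, minus strand), changed order between tissues. It was at 82.9 CPM (79.3 to 86.7) in naive lung, 73.9 CPM (70.8 to 77.0) in naive blood, 86.0 CPM (83.0 to 89.1) in 6 h lung, 68.1 CPM (64.7 to 71.6) in 6 h blood, 51.9 CPM (49.3 to 54.6) in 14-day lung and 60.0 CPM (56.4 to 63.9) in 14-day blood. Lung was above blood in the first 2 libraries and below it at 14 days. The ratio of 14-day over naive lung was -0.68 (-0.78 to -0.58), or 1.60-fold lower, and in blood it was -0.30 (-0.41 to -0.19). Stxbp2, which binds syntaxin 11 and aids its placement (chr8:3630955-3643644, plus strand), lay between 28.4 CPM in 6 h lung and 35.3 CPM in 14-day blood. Its lung and blood intervals overlapped at 6 h and at 14 days and, by less than 1 CPM, were apart in naive mice.

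Lyst and Lamp1 belong to the granule and its size. Lyst, the regulator of lysosome size that is lost in Chediak-Higashi syndrome (chr13:13590397-13778803, plus strand), was higher in lung at every time. It had 125 CPM (120.5 to 130) in naive lung against 90.5 CPM (87.2 to 94.0) in blood, 117 CPM (114 to 121) against 89.0 CPM (85.1 to 93.0) at 6 h, and 94.8 CPM (91.3 to 98.5) against 63.6 CPM (59.9 to 67.6) at 14 days. The 14-day level was lower in both tissues, with log2 ratios over naive of -0.40 in lung and -0.51 in blood, whose difference was 0.11 (-0.02 to 0.24). With the median of all genes subtracted, these ratios were -0.21 in lung and -0.35 in blood. Lamp1 (chr8:13159161-13175338, plus strand) had log2 ratios of lung over blood of -0.10, -0.12 and -0.07 in the 3 libraries, close to the medians of all genes tested, which were -0.09, -0.10 and -0.11.

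Srgn (chr10:62493833-62527451, minus strand) was also higher in lung at every time. Lung had 808 CPM (796 to 819) in naive mice, 856 CPM (847 to 866) at 6 h and 1202 CPM (1189 to 1215) at 14 days, and blood had 578 CPM (569 to 587), 651 CPM (640.1 to 661) and 638 CPM (626 to 649.7). The 14-day lung stood apart, 1.88-fold above its blood and 1.49-fold above naive lung, just short of the 1.5-fold used to count a difference. The change over 14 days in lung minus that in blood was 0.43 (0.39 to 0.47) on the log2 scale. A Srgn UMI was found at 3000 UMIs per cell in 84.2% of naive lung, 73.7% of naive blood and 91.3% of 14-day lung cells (94.0, 89.9 and 98.4% without thinning), where 5% free RNA would give at most 13.9%.

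The protease genes Ctsc and Ctsw moved little and in opposite ways. Ctsc (chr7:88278085-88310888, plus strand) encodes cathepsin C, which activates granzymes by cutting off their propeptide. It lay at 158 CPM (153 to 164) in naive lung, 151 CPM (146 to 155) in naive blood, 147 CPM (143 to 151) in 6 h lung, 138 CPM (133 to 143) in 6 h blood, 117 CPM (114 to 122) in 14-day lung and 137 CPM (132 to 143) in 14-day blood. Only in 14-day lung was it clear of the other groups, with a log2 ratio to naive lung of -0.43, or -0.25 with the median of all genes subtracted. Ctsw (chr19:5465043-5468507, minus strand) was lowest in naive lung, 456 CPM (448 to 465), and highest in 14-day lung, 552 CPM (543 to 561), with a log2 ratio of 0.27 between them and a naive blood level of 496 CPM. Fibp overlaps Ctsw on the other strand, as do Grtp1 with Lamp1 and Gm26522 with Ctsc and AC163398.1 with Rab27b. Gm27186 overlaps Rab27a on the same strand and is not among the genes counted.

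Counted at 1.5-fold, 1 of the 10 genes (Rab27b) was higher in naive lung than in naive blood and none lower, against 6.03% of all genes tested higher and 3.51% lower. At 6 h Rab27b was again the only gene past the fold, with 5.69% of all genes higher and 2.97% lower. At 14 days Rab27b and Srgn were higher and Unc13d lower, with 5.08 and 3.69% of all genes. In all 3 libraries only Rab27b was past the fold in 1 direction, as were 3.1% of all genes tested (higher) and 0.968% (lower). With cells thinned to 3000 UMIs that count was 0, since the 14-day log2 ratio of Rab27b was then 0.48. By sign alone, Rab27b, Lyst and Srgn were higher in lung in each library, as were 17.7% of genes, and Unc13d, Stxbp2 and Lamp1 lower, as were 50.7%, though with median-of-ratios scaling the 14-day log2 ratios of Stxbp2 and Lamp1 were 0.03 and 0.05. Rab27a in naive mice, 1.48-fold lower in lung, and Lyst at 14 days, 1.49-fold higher, fell just short of the fold.

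Against naive lung, no gene of the 10 was past the fold at 6 h, when only 0.465% of all genes were higher and 0.0628% lower. At 14 days Rab27a was higher and Rab27b and Stx11 lower, against 3.83 and 10.4% of all genes. In blood no gene was past the fold at 6 h (0.339% of all genes higher, 0.189% lower), and at 14 days Rab27b alone was lower, by 1.51-fold, where 0.88% of all genes were higher and 2.85% lower. The 14-day comparisons share their naive libraries and depend on the scaling. The median log2 ratio of all genes was -0.19 in lung and -0.15 in blood at 14 days, and 305 genes were higher and 824 lower in lung (70 and 227 in blood). With mitochondrial and ribosomal protein genes left out of the totals this became 570 and 396 in lung (123 and 106 in blood), Srgn passed the fold, and Stx11 in lung and Rab27b in blood no longer did. With the median of all genes subtracted, the ratios of 14-day over naive lung were -1.74 for Rab27b, 0.82 for Rab27a, 0.76 for Srgn and -0.49 for Stx11.

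**Figure D3:**
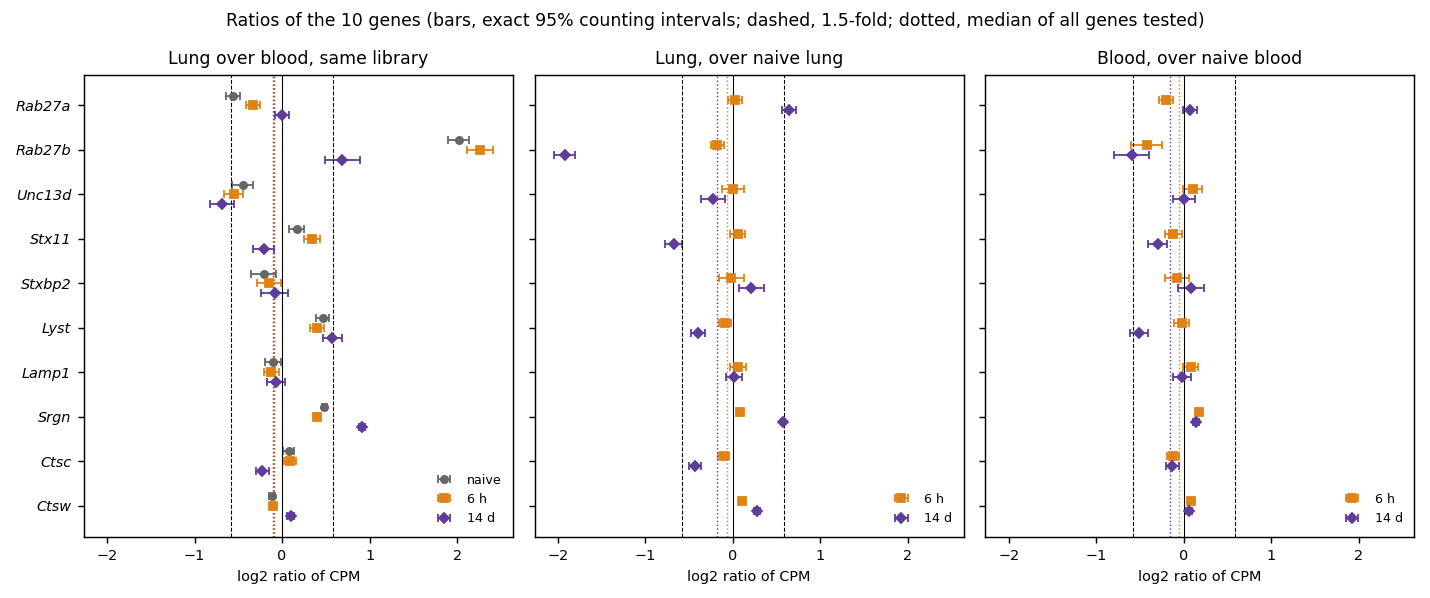
Log2 ratio of CPM of the 10 genes for lung over blood within each library (left), and for 6 h and 14 days over naive in lung (middle) and blood (right), with exact 95% counting intervals, dashed lines at 1.5-fold and dotted lines at the median of all genes tested. Rab27b stood at 2.02 and 2.26 in the naive and 6 h lung-to-blood ratios and at -1.92 in 14-day over naive lung, and Lamp1 lay between -0.12 and 0.08 in all 7 comparisons.

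NK cells in mice mature from CD27+ to CD11b+ stages, and CD11b is encoded by Itgam. Cells were therefore split by UMIs of Cd27 and Itgam, a split that also depends on depth per cell. In naive lung 6.53% of cells had Cd27 only, 13.5% both, 61.6% Itgam only and 18.4% neither, and in 14-day lung 13.5, 12.6, 47.0 and 27.0%. Median depth was 6658 UMIs in Cd27-only and 5900 UMIs in Itgam-only cells of naive lung.

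Lyst was lower in Itgam-only than in Cd27-only cells in all 6 groups, by a log2 ratio of -0.71 in 14-day lung to -1.57 in 6 h lung. In naive lung its level was 240 CPM in Cd27-only, 163 CPM in double-positive and 105 CPM in Itgam-only cells. Ctsc and Stx11 ran the other way in all 6 groups. Ctsc had log2 ratios of 0.41 to 0.81, and Stx11 of 0.33 to 0.90, with 48.6 CPM in Cd27-only and 90.7 CPM in Itgam-only cells of naive lung.

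Rab27b was higher in the Cd27-only cells of naive lung (133 CPM) than in Itgam-only cells (90.5 CPM), and more so at 6 h (164 against 64.0 CPM). The low 14-day lung level was found in every class, with 28.2 CPM in Cd27-only, 23.99 CPM in double-positive, 24.4 CPM in Itgam-only and 30.2 CPM in other cells. Rab27a in lung was higher at 14 days than in naive mice in every class, by a log2 ratio of 0.31 in Cd27-only and 0.67 to 0.75 in the other classes. Stx11 in lung differed by -0.12 in Cd27-only cells and by -0.69 in Itgam-only cells, while Srgn was higher by 0.48 to 0.73 in every class. With the classes weighted as in naive lung the same members were past the fold in lung.

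**Figure D4:**
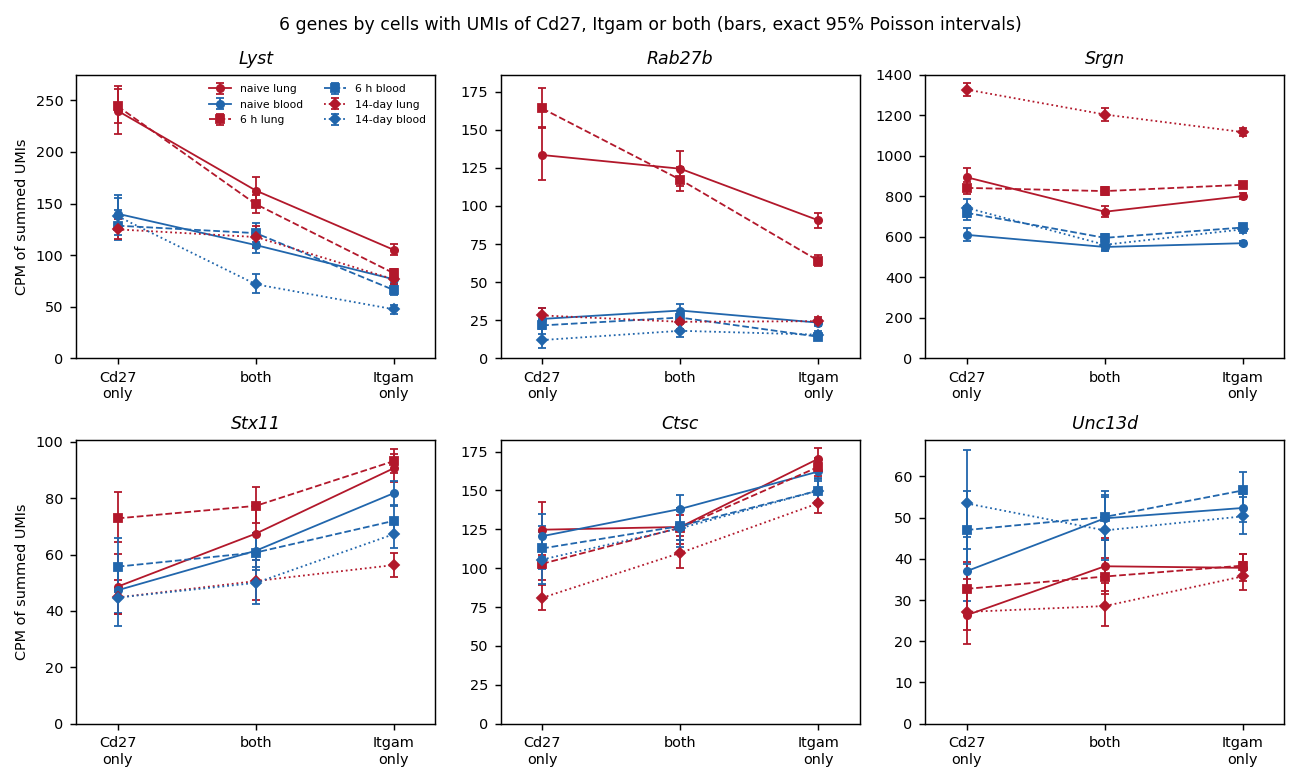
Level of 6 of the genes in cells with UMIs of Cd27 only, of both Cd27 and Itgam, or of Itgam only, for lung (red) and blood (blue) of each library, as CPM with exact 95% Poisson intervals. Lyst declined towards Itgam-only cells in every group, Stx11 and Ctsc were higher there, and the Rab27b levels of naive and 6 h lung lay above those of the other 4 groups in every class.

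In 14-day lung, 605 cells had UMIs of both Itga1 (CD49a) and Pmepa1, genes induced by TGF-β, and 1841 had neither. Lyst was at 120 CPM in the former and 67.6 CPM in the latter, a log2 ratio of 0.82 (0.67 to 0.97). Srgn (0.49, 0.45 to 0.54), Rab27b (0.32, 0.05 to 0.60), Ctsw (0.27, 0.21 to 0.33) and Lamp1 (0.19, 0.02 to 0.35) were also higher. Ctsc (-0.66, -0.81 to -0.52) and Stx11 (-0.61, -0.84 to -0.40) were lower, and Rab27a differed by -0.13 (-0.26 to 0.00). Unc13d (-0.18, -0.45 to 0.08) and Stxbp2 (0.20, -0.06 to 0.45) had intervals that included 0. The median of all genes was -0.05, with 4.66% of genes 1.5-fold higher and 5.87% lower, and the cells with both genes were deeper (7814 against 6599 UMIs in the median). The cells were not matched for Cd27 and Itgam class. Itgam-only over Cd27-only cells of 14-day lung had log2 ratios of -0.71 for Lyst, 0.33 for Stx11 and 0.81 for Ctsc. The part of class was not tested.

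Over the 24 sums of group and class, which share libraries and so are not independent, Stx11 and Ctsc had a Pearson correlation of 0.75 and Rab27b and Lyst of 0.66. Rab27a and Rab27b had -0.75, and Unc13d and Srgn -0.80. The genes with a pattern most like each, among 3703 with a mean of at least 50 CPM, were Agap2 (0.89) for Rab27a, Vti1b (0.86) for Stx11, Parp8 (0.89) for Lyst, Pa2g4 (0.81) for Lamp1, Prdx6 (0.96) for Srgn, Zmiz1 (0.95) for Ctsc and H2-T23 (0.85) for Ctsw. Vti1b encodes a SNARE protein of the endosomal system. Also among the most alike were Cnot3 and Il10ra for Rab27a, Tuba1c for Stx11, Emb and Sidt1 for Lyst, Set and Suclg1 for Lamp1, Slc38a2 and Tgfb1 for Srgn, Spn and Cdk14 for Ctsc, and Mrpl52 and Padi2 for Ctsw. Rab27b has a mean below that limit, and when it was added after its levels had been seen, Satb1 (0.97), Lyn (0.96) and Klhdc2 (0.96) were most like it and Clec2d (-0.96) most opposite. Across single cells at 3000 UMIs the median correlation over the 45 pairs was near 0 in each group. Most members had a UMI in a minority of cells at that depth, which limits such correlations. The highest pair in lung was Rab27b and Lyst, at 0.11 in naive mice, 0.13 at 6 h and 0.06 at 14 days. The lowest pairs there were at -0.05, -0.04 and -0.05.

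Wider lists of the pathway place the 10 genes among their partners. Of 13 genes for granule movement, such as Arl8b and Kif5b, 11 could be tested and 0 passed the fold in any of the 7 comparisons. Of all genes, 0.0628 to 10.4% passed it per comparison and direction, so few of 11 genes would. Of 14 tested docking and fusion genes, Vamp4 and Sytl3 were higher in naive lung than in blood, where 6.03% of all genes were, and 4 were lower in 14-day than in naive lung, where 10.4% of all genes were. Sytl3, an effector that binds Rab27 proteins, was at 487 CPM in naive lung and 324 CPM in naive blood. Its relative Sytl2 was at 216 CPM in naive and 122 CPM in 14-day lung, a log2 ratio of -0.82, and Vamp4, a SNARE, and Nsf, the ATPase that recycles SNAREs, had -0.64 and -0.63. The median log2 ratio of the 14 genes was 0.08 in naive lung over blood, where that of all genes was -0.09. In 14-day over naive lung it was -0.37, where that of all genes was -0.19. The 14-day ratios and counts of all the wider lists depend on the scaling. With mitochondrial and ribosomal protein genes left out of the totals, the median of all genes was -0.01, and 396 genes were lower in place of 824. The lists were not counted again at that setting.

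Granule release needs calcium entry, and of 11 genes for actin and calcium Orai1, the pore of the store-operated calcium channel, was higher in naive lung (160.2 CPM) than in naive blood (56.7 CPM). It was at 84.2 CPM in 14-day lung, and Dock2 and Stim1, the calcium sensor of the endoplasmic reticulum, were also lower there than in naive lung, with log2 ratios of -0.79 and -0.77. These 1 higher and 3 lower of 11 genes stand beside 6.03 and 10.4% of all genes, and the medians of the list were -0.13 and -0.41. Of 15 tested cargo and lysosomal genes, Fasl was higher in naive lung than in blood (368 against 199.97 CPM), and it was at 219 CPM in 14-day lung. The perforin gene Prf1 was at 790 CPM in 14-day and 1380 CPM in naive lung. The granzyme genes Gzmb and Gzma were at 1222 and 9435 CPM in 14-day lung and at 1070 and 11315 CPM in naive lung. In 14-day over naive lung 2 were higher and 3 lower, beside 3.83 and 10.4% of all genes, and the median of the 15 genes was -0.11 (-0.07 in naive lung over blood). The granzyme gene Gzmc was at 74.1 CPM in 14-day and 2.81 CPM in naive lung. In all other groups it was at 6.08 CPM or less, so it reached the minimum mean of 10 CPM only through 14-day lung. Its place among the genes higher there is therefore not a result. The lysosomal protease gene Ctss was at 47.9 and 20.5 CPM in 14-day and naive lung. The granzyme gene Gzmm was at 2.87 and 9.08 CPM, with 81 UMIs in 14-day lung.

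Promoter windows of 300 bases around the start from RefSeq (GRCm38.p6) were read for 7 of the members, 9 windows in all. Unc13d and Ctsw had no window, and Rab27b is not reported here. They were searched on both strands for CACGTG, the E-box of the lysosomal gene network, GGTGTGA, a site of T-box factors such as those encoded by Tbx21 and Eomes, and TGACTCA, the AP-1 site. These letters do not overlap one another where they matched, and they were found in 7.15, 3.98 and 5.20% of 32851 windows of all genes. Lamp1, the steadiest gene, is shown because its window held 4 E-boxes. The first Rab27a window and Ctsc each held 1 T-box match, and Stx11 is shown beside Ctsc, with which it varied, as a window with none of the 3. Matches are in capitals, the rest in lower case, 5′ to 3′ on the strand of the gene, and a match is a description of letters only.
Lamp1, chr8:13158911-13159210, plus strand: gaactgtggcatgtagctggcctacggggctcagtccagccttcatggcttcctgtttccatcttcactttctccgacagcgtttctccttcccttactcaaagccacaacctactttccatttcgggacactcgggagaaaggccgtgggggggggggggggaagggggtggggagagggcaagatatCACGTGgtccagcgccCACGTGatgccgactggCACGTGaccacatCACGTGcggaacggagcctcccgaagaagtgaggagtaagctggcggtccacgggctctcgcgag
Rab27a, chr9:73044560-73044859, plus strand: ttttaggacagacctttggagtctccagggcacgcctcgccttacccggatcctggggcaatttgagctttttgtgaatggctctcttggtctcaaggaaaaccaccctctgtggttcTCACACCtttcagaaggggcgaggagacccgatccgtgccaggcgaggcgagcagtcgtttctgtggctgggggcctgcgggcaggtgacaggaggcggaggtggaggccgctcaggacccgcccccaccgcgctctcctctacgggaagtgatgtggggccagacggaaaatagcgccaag
Ctsc, chr7:88277835-88278134, plus strand: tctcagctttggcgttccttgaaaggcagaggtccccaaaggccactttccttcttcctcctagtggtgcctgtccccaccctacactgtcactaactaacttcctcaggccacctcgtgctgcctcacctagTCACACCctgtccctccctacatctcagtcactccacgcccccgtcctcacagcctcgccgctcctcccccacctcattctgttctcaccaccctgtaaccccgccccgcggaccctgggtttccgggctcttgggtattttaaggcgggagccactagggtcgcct
Stx11, chr10:12964210-12964509, minus strand: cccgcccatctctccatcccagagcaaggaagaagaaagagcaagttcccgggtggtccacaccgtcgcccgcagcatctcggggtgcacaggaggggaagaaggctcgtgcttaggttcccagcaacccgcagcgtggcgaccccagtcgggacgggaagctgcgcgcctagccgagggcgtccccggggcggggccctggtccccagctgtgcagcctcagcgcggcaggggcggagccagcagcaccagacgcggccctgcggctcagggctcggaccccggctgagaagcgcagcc
The second Rab27a window and that of Stxbp2 each held 1 E-box, those of Lyst and Srgn none of the 3, and none of the windows read for these 7 members held an AP-1 site.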

How the data were processed

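The 3 libraries were made from sorted NK cells with 10x Genomics 3′ v3.1 chemistry. Raw UMI counts for genes and hashtags of all barcodes, before cell calling, are what the authors deposited. The methods name Cell Ranger 7.0.1 and GENCODE M23 (GRCm38.p6), and the file headers name 7.1.0. Positions came from GENCODE M21 (GRCm38), which held 25461 of 25906 genes.

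Barcodes with 800 to 5000 genes and at most 6% mitochondrial counts were kept (21754), and 21113 had at least 90% of tag counts from 1 hashtag. The first-named tag (B0304) was taken as lung and B0306 as blood, following the wording of the methods. No doublet caller was run, and an alternative leaves out the cells with most UMIs. UMIs were summed per group and scaled to CPM of 16936897 to 35922737 UMIs. Genes with a mean of at least 10 CPM were tested against a 1.5-fold difference, with exact Poisson, binomial and conditional binomial intervals (95%, counting error only). Intervals of a difference of log2 ratios used a normal approximation on the log scale. Nothing was tested between conditions, each of which is 1 library. For correlations, log2(CPM + 1) was used. For each member with a mean of at least 50 CPM the 3 most correlated genes were named, except 1 that is not reported here.

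The members and lists were chosen with earlier results of these data known. All 10 members were named, and of the pathway lists up to 3 genes with the largest ratios past the fold in naive lung over blood and in 14-day over naive lung. Levels of Prf1, Gzmb and Gzma were given whatever their ratio. The calculation of ratios was tested on simulated data. Python 3.11.15, numpy 2.4.6, scipy 1.17.1 and pandas 2.3.3 were used. Alternatives covered filters, hashtag thresholds, totals, scaling, depth, free RNA, doublets, other cell types, stress, weights and thresholds.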

Additional observations from a re-analysis of the deposited data

Results flagged for a closer look

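For 3 of the genes the lung-to-blood difference had opposite signs in different libraries, with counting intervals that did not include 0. The share of all genes that do so was not computed, so this count is not a result about the members. The difference between libraries was not tested, since each is 1 library. For Stx11, the syntaxin of the fusion complex, the log2 ratio of lung over blood was 0.17 in naive mice, 0.34 at 6 h and -0.21 at 14 days. For Ctsc, the granzyme-activating protease, it was 0.07, 0.09 and -0.23. For Ctsw, cathepsin W, it was -0.12, -0.10 and 0.10, and the 6 h value reached 0.00 with median-of-ratios scaling. Over the 16 alternative settings the signs of Stx11 and Ctsc did not change, and that of Ctsw changed only at 6 h, in 1 setting. The sizes depend on the scaling, and the medians of all genes were -0.09, -0.10 and -0.11. With these subtracted, Ctsw was at -0.03, -0.004 and 0.20, Stx11 at 0.26, 0.43 and -0.10, and Ctsc at 0.17, 0.19 and -0.12.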

How the results depend on the processing

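Of 320 counts of members past the fold over all settings, 279 stayed within 1.5 times the reported count and 41 moved, and no called ratio changed sign. With 1000 to 4000 genes and at most 4% mitochondrial counts per cell, set together, and without the 5% of cells with the most UMIs, 1 gene (Rab27a) was lower in naive lung than in blood. With totals that leave out mitochondrial and ribosomal protein genes, and with median-of-ratios scaling, 2 genes were higher (Rab27a, Srgn) and 1 lower (Rab27b) in 14-day over naive lung, and 0 lower in 14-day over naive blood. Of all genes, 570 were higher and 396 lower in lung in the first setting, and 475 and 421 in the second. In blood 106 and 63 of all genes were lower. The count of members lower in 14-day blood was also 0 after thinning, with 5% free RNA subtracted, in cells with no stress gene UMI, for the mean of single-cell CPM and with weighted classes. It was 2 (Rab27b, Lyst) without cells with 2 or more ILC1 markers. For 14-day lung over blood 0 genes were lower under median-of-ratios scaling and thinning. After thinning 0 genes were higher in lung in all 3 libraries, since the 14-day log2 ratio of Rab27b was then 0.48. With free RNA subtracted, Unc13d made 1 lower at 6 h. For the other settings of this paragraph the share of all genes is not given. These counts describe the settings and are not results about the members.

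With 25% above in place of 50% above as the smallest fold, 3 genes were higher and 2 lower in naive lung over blood, 4 and 2 at 6 h, 2 and 4 in 14-day over naive lung, 1 lower in 6 h blood, 2 lower in 14-day blood, and 3 higher and 1 lower in all 3 libraries. At 2-fold, 0 were higher or lower in 14-day lung over blood, 0 higher and 1 lower (Rab27b) in 14-day over naive lung, 0 lower in 14-day blood and 0 higher in all 3 libraries. A minimum of 50 CPM leaves out Rab27b, Unc13d and Stxbp2, so that 0 were higher in naive and 6 h lung over blood and in all 3 libraries, 1 higher (Srgn) and 0 lower at 14 days, 1 lower (Stx11) in 14-day over naive lung and 0 lower in 14-day blood. The counts in this paragraph are given without the share of all genes at the same setting. A smaller fold lets more genes of any kind pass, so these counts are not results about the members. Apart from these built-in effects of thresholds, the cause was not tested. No member was affected by barcodes shared between libraries, and leaving out cells with myeloid, neutrophil or erythroid markers was added after the data were seen and moved no count.

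Over all genes, median-of-ratios scaling changed the split of higher and lower genes from 480 and 279 to 591 and 160 in naive lung over blood, from 453 and 236 to 566 and 133 at 6 h, from 404 and 294 to 535 and 155 at 14 days (523 and 222 without mitochondrial and ribosomal genes), from 305 and 824 to 475 and 421 in 14-day lung, from 27 and 15 to 31 and 9 in 6 h blood, from 70 and 227 to 139 and 63 in 14-day blood, and from 247 and 77 to 321 and 36 in all 3 libraries. Thinning changed it from 37 and 5 to 40 and 16 in 6 h lung.

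Lung and blood cells of a library form a pair, and the ratio is given within each, but the 3 pairs are 3 conditions and no fit over them was run. No condition has a replicate to leave out. Depth limits the less abundant genes, since Rab27b rests on 278 UMIs in 14-day blood, 408 in 6 h blood, 742 in naive blood and 744 in 14-day lung, and Stxbp2 and Unc13d on 598 to 1512 UMIs per group.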
